A study of Mus musculus with 6 samples.

Results

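The genes of glucose use were followed in NIH3T3, a mouse embryonic fibroblast line, after extracellular vesicles (EVs, membrane-bound particles released by cells) had been added to the cultures. They are a list of 34 symbols that runs from glucose uptake through glycolysis to lactate export, 27 symbols, and on to the pentose phosphate branch, 7 symbols. Rows were matched by symbol, and 33 of the 34 were found among the 20475 rows of the deposited RNA-seq table. The symbol Pkm2, an older symbol of Pkm, matched no row, and its gene is described under Pkm. The 3 groups were cells given EVs of MDA-MB-231 (a line from a human breast cancer), cells given EVs of MCF10A (a line from human breast epithelium that forms no tumours), and cells given PBS, the buffered saline that also carried the vesicles. Each group had 2 libraries. All cells were at passage 5 and had been grown in DMEM with fetal bovine serum. The vesicle dose was 100000000 EVs, or 800 per recipient cell, and RNA was taken after 48 h in all groups.

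Glycolysis splits glucose into pyruvate in the cytosol, with a gain of ATP and NADH. Dividing fibroblasts turn much of that pyruvate into lactate, which restores the NAD that the pathway needs and leaves the cell through monocarboxylate transporters. The pentose phosphate pathway branches off at glucose 6-phosphate, yielding NADPH in its oxidative arm and ribose phosphate in both arms. Many glycolytic genes carry binding sites for the transcription factors HIF-1 and MYC.

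The libraries held between 22451173 and 29315530 reads in genes, and between 14553 and 14856 genes had a read. Values are given as normalised reads, that is, reads adjusted by the authors to a common library size. A gene was called when limma, fitted to log2(value + 1) of 15025 rows in all 6 libraries, gave a Benjamini-Hochberg adjusted p under 0.05. The labels do not say that the 2 libraries of a group came from separate cultures, so the p-values measure only the spread between these samples. Both vesicle groups were set against the same PBS libraries, so the 2 comparisons share them. The fibroblast identity of the cells was checked on 8 markers, all of which were abundant, with summed levels of 338500 to 346600 normalised reads with MDA-MB-231 EVs, 343400 to 352400 with MCF10A EVs and 396500 to 396900 with PBS. The 7 epithelial markers summed to 49 reads or fewer in every library, and Epcam, Krt5 and Krt18 were at 0. Cdh1, 1 of the 2 epithelial markers that could be tested, was called higher with MDA-MB-231 EVs, at 4.06 and 2.16 normalised reads, and with MCF10A EVs, at 2.16 and 2.54, than with PBS, at 0 and 0. Of the macrophage and leukocyte markers 6 were in the table, and their sum was 993 to 1059 normalised reads with MDA-MB-231 EVs, 1779 to 1832 with MCF10A EVs and 3036 to 3142 with PBS. Nearly all of that sum was Cd14, while Emr1 was at 0 and Ptprc had at most 1.05 normalised reads. The part of these differences in the results on glucose genes was not tested.

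Of the 26 genes from glucose uptake to lactate, 17 were lower with both kinds of EV than with PBS and 6 were called with neither, and of the 7 pentose phosphate genes 1 was lower with both and 3 were called with neither. The share of all rows lower with both was not counted, but it is at most the 14.6% that were lower with MCF10A EVs. The share of all rows called with neither was not counted. Of the 33 genes, 19 fell and 3 rose with MDA-MB-231 EVs relative to PBS, where 16.9% of all rows tested fell and 17.9% rose. With MCF10A EVs 18 fell and 2 rose, where 14.6% of all rows fell and 17.1% rose. The median log2 change of the 33 genes was -0.14 with MDA-MB-231 EVs and -0.16 with MCF10A EVs, and that of all rows was 0.01 and 8.14e-05. As these are bulk libraries, fewer cells with a transcript and less of it per cell cannot be told apart. Genes of this pathway are abundant, and abundant genes were called more often. Of the 23 with a mean of at least 1000 normalised reads, 16 fell with MDA-MB-231 EVs and 16 with MCF10A EVs, while 29.3% and 24.1% of the 5341 rows this abundant did. In the same 23 genes 2 rose with each kind of EV, where 28% and 28.6% of those rows did. When the columns were scaled to the same total, 67.8% of the genes called with MDA-MB-231 EVs were higher than with PBS, against 51.4% on the deposited scale.

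The falls were small, and most were called in both comparisons, which use the same PBS libraries. They ran from 1.07-fold to 1.56-fold with MDA-MB-231 EVs, with a median of 1.30-fold, and from 1.10-fold to 1.77-fold with MCF10A EVs, with a median of 1.30-fold. Of the 33 genes, 18 fell with both kinds of EV, namely 17 of the 26 from uptake to lactate and Tkt of the pentose phosphate branch. At most 14.6% of all rows did so, the share that fell with MCF10A EVs. Summed over the 26 genes from uptake to lactate, the reads made up 1.25% and 1.21% of the library with MDA-MB-231 EVs, 1.15% and 1.16% with MCF10A EVs, and 1.45% and 1.42% with PBS. The 7 pentose phosphate genes made up 0.115% and 0.115% with MDA-MB-231 EVs, 0.116% and 0.116% with MCF10A EVs, and 0.111% and 0.111% with PBS. Both vesicle groups thus lay below PBS in the first share and above it in the second, with no overlap of libraries. The second order depends on the scale: in normalised reads the 7 genes summed to 27849 and 27408 with MDA-MB-231 EVs, 28756 and 28807 with MCF10A EVs, and 28069 and 27946 with PBS. In 20 of the 33 genes both MDA-MB-231 EV libraries lay below both PBS libraries and in 7 above, where 31.6% and 34.3% of all rows did so. With MCF10A EVs 21 genes lay below and 10 above, where 31.1% and 33.0% of all rows did so.

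**Figure D1:**
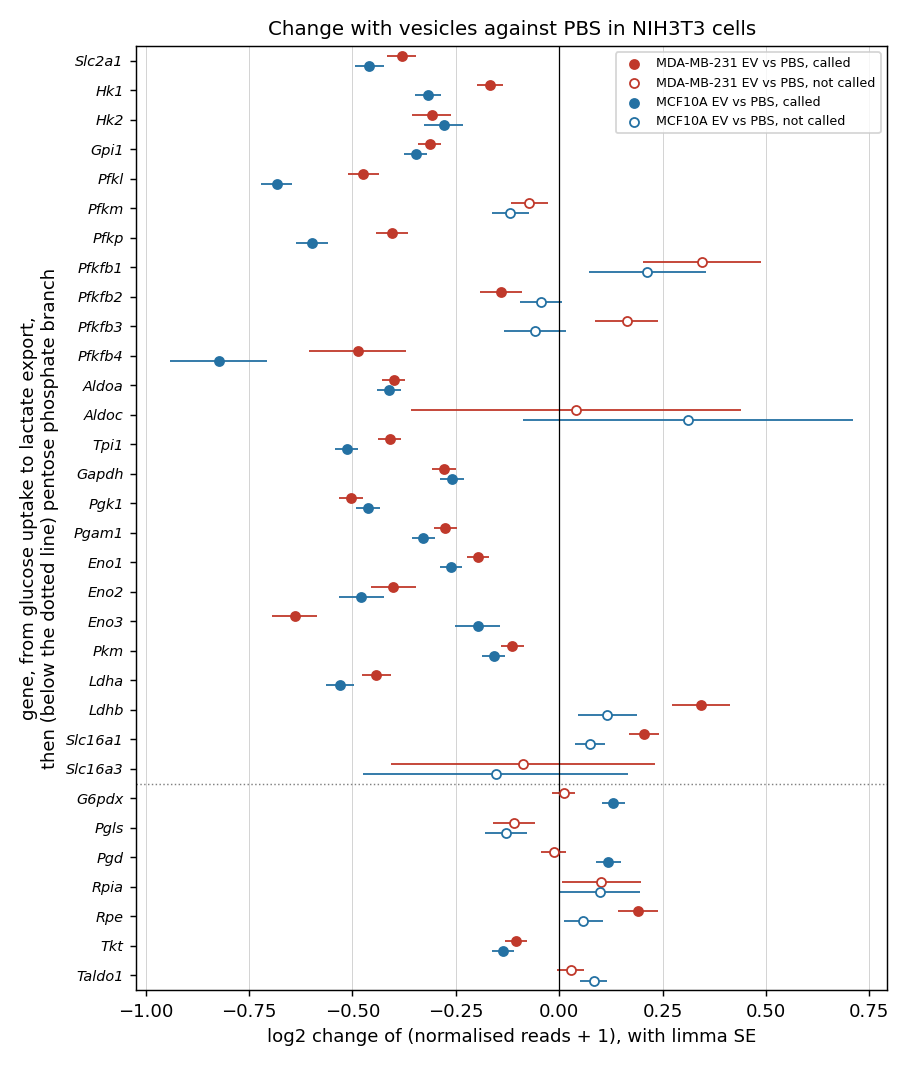
Log2 change of log2-scaled normalised reads (x axis, limma estimate with its SE) for 32 genes in pathway order (y axis), with MDA-MB-231 EVs (red) and MCF10A EVs (blue) relative to PBS, filled where the adjusted p was under 0.05; Slc2a3, near 0 reads, is left out. Filled points lie left of 0 from Slc2a1 to Ldha, while Ldhb and Slc16a1 lie to the right and the pentose phosphate genes lie close to 0.

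The stretches of DNA before the start sites of 6 of these genes are shown, because the genes that fell together differ in whether they hold ACGTG. This is a form of the core of the HIF response element, which starts with A or G. The form with G, GCGTG, was not counted. Each run gives the 250 bases before the annotated start, 5′ to 3′ on the gene's strand, from RefSeq on the mouse build GRCm38.p6, and capitals mark ACGTG, read on either strand. The E-box bound by MYC, CACGTG, holds ACGTG on both strands. The genes are Pgk1, at chrX:106186850-106187099 on the plus strand, Slc2a1, at chr4:119108495-119108744 on the plus strand, Hk2, at chr6:82774455-82774704 on the minus strand, Ldha, at chr7:46845554-46845803 on the plus strand (its first window), Pfkl, at chr10:78009808-78010057 on the minus strand, and Slc16a1, at chr3:104638414-104638663 on the plus strand.
Pgk1: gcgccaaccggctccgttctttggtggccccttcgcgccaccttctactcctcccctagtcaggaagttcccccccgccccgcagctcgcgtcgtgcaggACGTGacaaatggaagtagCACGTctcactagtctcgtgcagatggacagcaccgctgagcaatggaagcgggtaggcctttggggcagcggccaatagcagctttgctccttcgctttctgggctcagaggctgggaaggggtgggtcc
Slc2a1: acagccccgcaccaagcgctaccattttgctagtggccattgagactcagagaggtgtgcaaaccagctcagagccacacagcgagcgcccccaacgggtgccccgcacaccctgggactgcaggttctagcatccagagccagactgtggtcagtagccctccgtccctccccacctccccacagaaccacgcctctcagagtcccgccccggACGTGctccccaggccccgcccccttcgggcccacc
Hk2: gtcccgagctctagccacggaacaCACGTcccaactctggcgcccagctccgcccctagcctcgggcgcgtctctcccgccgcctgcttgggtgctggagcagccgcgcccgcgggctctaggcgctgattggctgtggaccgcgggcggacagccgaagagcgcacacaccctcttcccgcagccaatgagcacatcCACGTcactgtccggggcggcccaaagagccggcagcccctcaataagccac
Ldha: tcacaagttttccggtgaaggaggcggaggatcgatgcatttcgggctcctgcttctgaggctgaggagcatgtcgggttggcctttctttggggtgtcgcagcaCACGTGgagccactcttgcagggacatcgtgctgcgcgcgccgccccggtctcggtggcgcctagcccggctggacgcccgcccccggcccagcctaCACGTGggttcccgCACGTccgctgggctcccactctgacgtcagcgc
Pfkl: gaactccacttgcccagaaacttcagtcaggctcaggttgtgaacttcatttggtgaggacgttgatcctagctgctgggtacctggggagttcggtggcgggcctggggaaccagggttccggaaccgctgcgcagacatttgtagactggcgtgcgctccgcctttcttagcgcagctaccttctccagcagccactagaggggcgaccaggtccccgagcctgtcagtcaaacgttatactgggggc
Slc16a1: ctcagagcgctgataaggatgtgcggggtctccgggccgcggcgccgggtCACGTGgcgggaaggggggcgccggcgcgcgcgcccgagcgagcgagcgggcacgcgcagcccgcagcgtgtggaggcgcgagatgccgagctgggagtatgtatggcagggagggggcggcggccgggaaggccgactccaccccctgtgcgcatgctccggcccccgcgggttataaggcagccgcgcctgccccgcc
Pgk1 holds 2 marked stretches, 131 and 150 bases before the start, and Slc2a1 holds 1, at 36 bases. Hk2 holds 2, at 52 and 226 bases, and Ldha holds 3 between 34 and 145 bases, of which 2 are E-boxes. Pfkl, which fell with both kinds of EV as the first 4 did, holds no ACGTG, but its run holds GCGTG, the form not counted. Slc16a1, which did not fall, holds 1, an E-box at 200 bases. In windows of 300 bases (250 before to 50 after the start, both strands), ACGTG stood in 19.6% of all 32851 windows and in at least 1 window of 27.2% of the 11277 tested genes that had one. Among the 33 genes 32 had a window, and 16 of them, 50.0%, held ACGTG. It was in 9 of the 18 genes that fell with both kinds of EV and in 7 of the other 14. By branch it was in 15 of 25 genes from uptake to lactate and in 1 of 7 of the pentose phosphate branch. CACGTG was in 5 of the 32 genes, 15.6%, and in 10.8% of the tested genes. Of the 18 genes that fell with both kinds of EV only 1, Ldha, held it, and 4 of the other 14 did. These matches describe letters in a window and do not show that a factor was bound.

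At the entry of the pathway, Slc2a1, which encodes the glucose transporter GLUT1, fell with both kinds of EV. It had 5517 and 5175 normalised reads with MDA-MB-231 EVs, 5093 and 5030 with MCF10A EVs, and 7085 and 6834 with PBS. All 4 vesicle libraries lay below both PBS libraries, by 1.30-fold with MDA-MB-231 EVs (limma adjusted p = 5.21e-07) and 1.37-fold with MCF10A EVs (adjusted p = 1.83e-07). Slc2a3 (chromosome 6), the high-affinity transporter GLUT3 of neurons, was at the limit of detection, with at most 1.70 normalised reads in a vesicle library and 0 in both PBS libraries, where a count of 0 allows up to 0.129 CPM (3 reads, counting error only). No fold is given for it.

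Hexokinases trap glucose in the cell as glucose 6-phosphate, and both genes fell. Hk1 (chromosome 10), the widely expressed form, had 5244 and 5000 normalised reads with MDA-MB-231 EVs, 4619 and 4614 with MCF10A EVs, and 5792 and 5704 with PBS. The 3 groups did not overlap, and the fall was 1.12-fold with MDA-MB-231 EVs (adjusted p = 0.000671) and 1.25-fold with MCF10A EVs (adjusted p = 3.01e-06). Hk2, the inducible form of muscle and of proliferating cells, had 1668 and 1579 normalised reads with MDA-MB-231 EVs, 1619 and 1693 with MCF10A EVs, and 2082 and 1939 with PBS. It lay 1.24-fold below PBS with MDA-MB-231 EVs and 1.21-fold below with MCF10A EVs, and the 2 vesicle groups overlapped. Gpi1 (chromosome 7), the isomerase that makes fructose 6-phosphate, had 12080 and 11636 normalised reads with MDA-MB-231 EVs, 11494 and 11672 with MCF10A EVs, and 14692 and 14764 with PBS. Its falls of 1.24-fold and 1.27-fold were of the same order, again with overlapping vesicle groups.

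Phosphofructokinase commits the sugar to glycolysis, and its 3 subunit genes did not move alike. Pfkl, the liver-type subunit, had 5396 and 5007 normalised reads with MDA-MB-231 EVs, 4386 and 4606 with MCF10A EVs, and 7287 and 7152 with PBS. This was a fall of 1.39-fold with MDA-MB-231 EVs (log2 change -0.47, SE 0.0374, adjusted p = 1.35e-07) and of 1.61-fold with MCF10A EVs (log2 change -0.68, adjusted p = 7.71e-09). Pfkp (chromosome 13), the platelet-type subunit, had 2520 and 2395 normalised reads with MDA-MB-231 EVs, 2110 and 2187 with MCF10A EVs, and 3218 and 3285 with PBS, falls of 1.32-fold and 1.51-fold. Pfkm (chromosome 15), the muscle-type subunit, had normalised reads of 1794 and 1933 with MDA-MB-231 EVs, 1788 and 1818 with MCF10A EVs, and 1905 and 2012 with PBS. Its log2 changes of -0.07 with MDA-MB-231 EVs (adjusted p = 0.245) and -0.12 with MCF10A EVs (adjusted p = 0.0571) did not pass the test. The change with MCF10A EVs passed with a filter of 5 CPM (limma adjusted p = 0.0282) and in the edgeR count test (adjusted p = 0.0215). It also passed when either MDA-MB-231 EV library was left out of the fit, where the log2 change was -0.119. Of 15 alternative settings 10 gave no call.

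The 4 bifunctional enzymes that make and break fructose 2,6-bisphosphate, the activator of phosphofructokinase, differed from each other. Pfkfb4 (chromosome 9), the testis and tumour form, had 249 and 284 normalised reads with MDA-MB-231 EVs, 238 and 186 with MCF10A EVs, and 358 and 389 with PBS. It fell 1.40-fold with MDA-MB-231 EVs (adjusted p = 0.00416) and 1.77-fold with MCF10A EVs (adjusted p = 7.54e-05), the largest fall of any of the 33 genes with MCF10A EVs. Both calls were lost in limma with no filter on low values (adjusted p = 0.153 with MDA-MB-231 EVs and 0.0614 with MCF10A EVs). The first was also lost in limma without the trend (adjusted p = 0.0969) and without PBS replicate 2, where its log2 change was -0.427. Pfkfb3 (chromosome 2), the form with the strongest kinase activity, had 421 and 427 normalised reads with MDA-MB-231 EVs, 373 and 355 with MCF10A EVs, and 375 and 382 with PBS, and was called with neither. Pfkfb2 (chromosome 1), the heart form, had 885 and 864 normalised reads with MDA-MB-231 EVs, 949 and 921 with MCF10A EVs, and 940 and 989 with PBS. Its fall with MDA-MB-231 EVs (adjusted p = 0.0451) was lost when any 1 of the 6 libraries was left out, with an adjusted p of 0.0542 to 0.259. Pfkfb1 (chromosome X), the liver and muscle form, had 142 and 169 normalised reads with MDA-MB-231 EVs, 130 and 153 with MCF10A EVs, and 119 and 125 with PBS. It was not called with MDA-MB-231 EVs in the main test (log2 change 0.345, limma adjusted p = 0.0743). It was called higher with a filter of 5 CPM (limma adjusted p = 0.0318) and with columns scaled to the same total (0.0342). The edgeR count test also called it higher (adjusted p = 0.044). Dropping MDA-MB-231 EV replicate 1 gave a call too, at a log2 change of 0.469. Of 15 alternative settings 11 gave no call.

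Aldolase splits the sugar into 2 trioses, which are passed on through Tpi1, Gapdh and Pgk1. Aldoa (chromosome 7), the ubiquitous aldolase, had 23438 and 22207 normalised reads with MDA-MB-231 EVs, 22755 and 22526 with MCF10A EVs, and 30257 and 29964 with PBS. It fell 1.32-fold and 1.33-fold, while Aldoc (chromosome 11), the brain form, had 6.44 to 9.67 normalised reads in all 6 libraries. Tpi1 (chromosome 6), triosephosphate isomerase, had 13623 and 13136 normalised reads with MDA-MB-231 EVs, 12471 and 12421 with MCF10A EVs, and 18008 and 17539 with PBS. The 3 groups were separate, with falls of 1.33-fold with MDA-MB-231 EVs and 1.43-fold with MCF10A EVs.

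Gapdh, the NADH-forming step and a common reference gene, was lower in all 4 vesicle libraries. It had 37858 and 35982 normalised reads with MDA-MB-231 EVs, 37167 and 37621 with MCF10A EVs, and 45411 and 44096 with PBS. The falls were 1.21-fold with MDA-MB-231 EVs (limma adjusted p = 2.38e-06) and 1.20-fold with MCF10A EVs (adjusted p = 9.01e-06). Under quantile scaling the log2 change with MDA-MB-231 EVs was 0. That scaling sets each value by its rank in the library, so a gene that keeps its rank shows no change. With columns scaled to the same total the fall with MDA-MB-231 EVs was still called. Pgk1, which makes the first ATP of the pathway, had 24296 and 22840 normalised reads with MDA-MB-231 EVs, 24184 and 24324 with MCF10A EVs, and 33393 and 33415 with PBS. Its falls of 1.42-fold with MDA-MB-231 EVs (adjusted p = 6.16e-09) and 1.38-fold with MCF10A EVs left all 4 vesicle libraries below both PBS libraries, and the first had the smallest adjusted p of the 33 genes in its comparison.

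**Figure D2:**
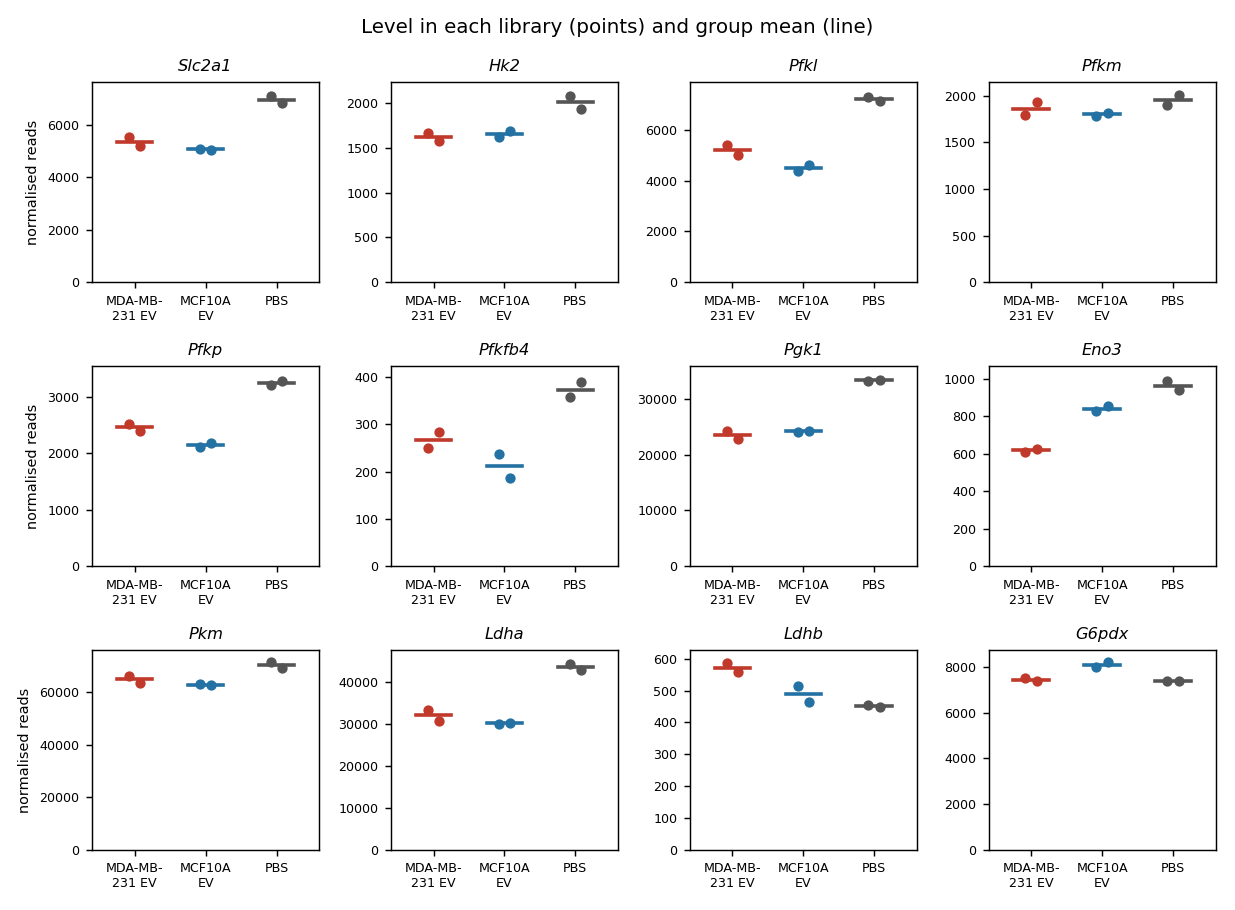
Normalised reads (y axis, from 0) of 12 genes in each of the 6 libraries (points), with the group mean (line), for MDA-MB-231 EVs, MCF10A EVs and PBS from left to right. Both vesicle groups lie below PBS for Slc2a1, Hk2, Pfkl, Pfkp, Pfkfb4, Pgk1, Eno3, Pkm and Ldha, while Ldhb is highest with MDA-MB-231 EVs and G6pdx with MCF10A EVs.

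The last steps, from 3-phosphoglycerate to pyruvate, were all lower, by different amounts. Pgam1 (chromosome 19), phosphoglycerate mutase, had 29430 and 28145 normalised reads with MDA-MB-231 EVs, 27519 and 27969 with MCF10A EVs, and 34892 and 34770 with PBS. This was a fall of 1.21-fold and 1.26-fold, and the difference between the 2 kinds of EV was not called (adjusted p = 0.229). Of the enolases, Eno2 (chromosome 6), the neuronal form, had 1485 and 1714 normalised reads with MDA-MB-231 EVs, 1481 and 1544 with MCF10A EVs, and 2111 and 2103 with PBS, falls of 1.32-fold and 1.39-fold. Eno3 (chromosome 11), the muscle form, had 611 and 628 normalised reads with MDA-MB-231 EVs, 828 and 856 with MCF10A EVs, and 990 and 941 with PBS. The 3 groups did not overlap, and its fall of 1.56-fold with MDA-MB-231 EVs (log2 change -0.64, SE 0.0546, adjusted p = 2.98e-07) was the largest of the 33 genes in that comparison. With MCF10A EVs it fell 1.15-fold (adjusted p = 0.0119), which did not hold without PBS replicate 1 (adjusted p = 0.114) or without MCF10A EV replicate 1 (adjusted p = 0.0864).

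Eno1, the ubiquitous enolase, had 33405 and 32380 normalised reads with MDA-MB-231 EVs, 31140 and 31702 with MCF10A EVs, and 38004 and 37363 with PBS. It was called lower with both, by 1.15-fold and 1.20-fold, but its log2 change with MDA-MB-231 EVs turned to 0.03 (adjusted p = 0.236) under quantile scaling. Its values are uncertain, because rows named Eno1b, a near-identical copy, hold almost the same values on chromosome 4 and higher ones on chromosome 18. Gapdh, Pgam1, Aldoa, Tpi1 and Ldha also have processed pseudogenes in the mouse genome, and how reads shared with such copies were counted is not given in the sources used here. Pkm (chromosome 9), pyruvate kinase, had 66210 and 63631 normalised reads with MDA-MB-231 EVs, 63049 and 62765 with MCF10A EVs, and 71367 and 69078 with PBS. It was called lower by only 1.08-fold with MDA-MB-231 EVs (adjusted p = 0.00518), which did not hold without PBS replicate 1 (adjusted p = 0.127) and turned to a log2 change of 0.26 (adjusted p = 8.12e-06) under quantile scaling. With MCF10A EVs it fell 1.12-fold (adjusted p = 0.000509), while under quantile scaling that change was -0.03 (adjusted p = 0.309).

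Lactate dehydrogenase showed opposite changes of its 2 subunits with MDA-MB-231 EVs. Ldha, the subunit of the muscle form, which favours lactate, had 33353 and 30670 normalised reads with MDA-MB-231 EVs, 30046 and 30127 with MCF10A EVs, and 44167 and 42735 with PBS. It fell 1.36-fold with MDA-MB-231 EVs (adjusted p = 1.13e-07) and 1.44-fold with MCF10A EVs (adjusted p = 3.75e-08). Ldhb (chromosome 6), the subunit of the heart form, had 585 and 559 normalised reads with MDA-MB-231 EVs, 513 and 466 with MCF10A EVs, and 454 and 447 with PBS. It rose 1.27-fold with MDA-MB-231 EVs (adjusted p = 0.00133), and with MCF10A EVs its log2 change of 0.12 was not called (adjusted p = 0.243). Slc16a1, the lactate transporter MCT1, which carries lactate in either direction, had 3241 and 3074 normalised reads with MDA-MB-231 EVs, 2852 and 2914 with MCF10A EVs, and 2709 and 2763 with PBS. It rose 1.15-fold with MDA-MB-231 EVs (adjusted p = 0.000348), while the log2 change of 0.08 with MCF10A EVs was not called (adjusted p = 0.134). Slc16a3 (chromosome 11), the exporter MCT4 of highly glycolytic cells, had only 16.3 to 28.4 normalised reads in the 6 libraries, and its groups overlapped.

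Read per kilobase of exon, which allows genes to be compared, the levels with PBS were highest for Gapdh, at 29936 normalised reads per kilobase, then Pkm at 27020, Ldha at 22929, Pgam1 at 19623, Pgk1 at 18304, Aldoa at 16508, Eno1 at 14801 and Tpi1 at 10076. The regulated entry steps stood far lower, with 2135 for Slc2a1, 1935 for Pfkl, 1185 for Hk1 and 358 for Hk2. G6pdx and Pgd of the pentose phosphate branch stood at 2787 and 3107. Gapdh and Pkm, the most abundant by this measure, fell 1.21-fold and 1.08-fold with MDA-MB-231 EVs. Eno3, with the largest fall in that comparison, stood at rank 22 of the 33 genes, at 617, and Pfkfb4, with the largest fall with MCF10A EVs, at rank 28, at 107.

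The make-up of the isozyme families also differed. Ldhb made up 1.72% and 1.79% of the reads of Ldha and Ldhb with MDA-MB-231 EVs, 1.68% and 1.52% with MCF10A EVs, and 1.02% and 1.04% with PBS. Pfkm made up 18.5% and 20.7% of phosphofructokinase gene reads with MDA-MB-231 EVs, 21.6% and 21.1% with MCF10A EVs, and 15.4% and 16.2% with PBS. Pfkl took the opposite course, with 55.6% and 53.6% with MDA-MB-231 EVs, 53.0% and 53.5% with MCF10A EVs, and 58.7% and 57.5% with PBS. In all 3 cases the vesicle libraries lay apart from the PBS libraries, and the 2 vesicle groups did not overlap either. Pfkp stayed between 25.4% and 26.4% in all libraries. The share of Hk2 in the reads of both hexokinases was 24.13% and 24.0% with MDA-MB-231 EVs, 25.95% and 26.84% with MCF10A EVs, and 26.45% and 25.37% with PBS. Of the reads of Eno1, Eno2 and Eno3, Eno3 made up 1.72% and 1.81% with MDA-MB-231 EVs, 2.48% and 2.51% with MCF10A EVs, and 2.41% and 2.33% with PBS. The rows named Eno1b were left out of that sum, and the Eno1 values in it are uncertain. These shares are given as values, with no test.

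**Figure D3:**
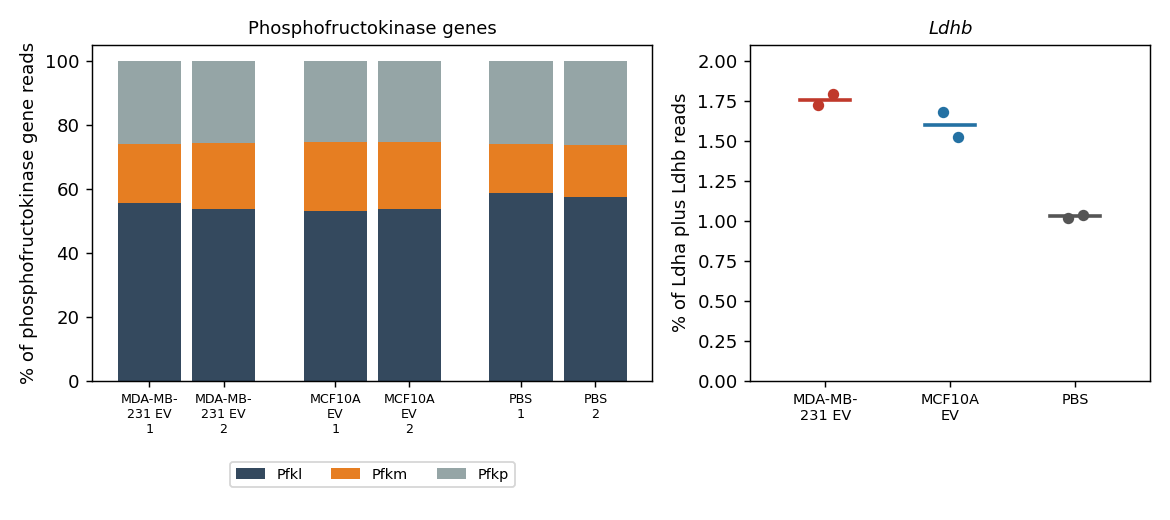
Left, share of phosphofructokinase gene reads (y axis, percent) taken by Pfkl, Pfkm and Pfkp in each library (bars); right, share of Ldhb in the reads of Ldha and Ldhb (y axis, percent) in each library (points) with the group mean (line). Pfkm takes 18.5% to 21.6% in the vesicle libraries and at most 16.2% with PBS, and Ldhb at least 1.52% in the vesicle libraries and at most 1.04% with PBS.

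Of the 7 genes of the pentose phosphate branch, 1 rose and 1 fell with MDA-MB-231 EVs, and 2 rose and 1 fell with MCF10A EVs. Among all rows 17.9% rose and 16.9% fell with MDA-MB-231 EVs, and 17.1% rose and 14.6% fell with MCF10A EVs. With 7 genes, such counts are not read as a change of the branch. In its oxidative arm, G6pdx (chromosome X), glucose 6-phosphate dehydrogenase and the source of most NADPH, had 7516 and 7378 normalised reads with MDA-MB-231 EVs, 7984 and 8205 with MCF10A EVs, and 7403 and 7378 with PBS. It rose 1.10-fold with MCF10A EVs (adjusted p = 0.00235), and its log2 change with MDA-MB-231 EVs was 0.01 (adjusted p = 0.813). Pgd (chromosome 4), the second NADPH-forming dehydrogenase, had 6978 and 6679 normalised reads with MDA-MB-231 EVs, 7552 and 7414 with MCF10A EVs, and 6974 and 6809 with PBS. It rose 1.09-fold with MCF10A EVs (adjusted p = 0.00793), which did not hold without PBS replicate 2 (adjusted p = 0.0959) or MCF10A EV replicate 1 (adjusted p = 0.0691). Pgls (chromosome 8), the lactonase between them, had 1063 and 1085 normalised reads with MDA-MB-231 EVs, 1036 and 1085 with MCF10A EVs, and 1119 and 1199 with PBS, and was called with neither.

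In the non-oxidative arm, which links ribose phosphate back to glycolysis, 2 genes were called. Tkt (chromosome 14), transketolase, had 7233 and 7178 normalised reads with MDA-MB-231 EVs, 7077 and 7026 with MCF10A EVs, and 7736 and 7755 with PBS. Its falls were 1.07-fold with MDA-MB-231 EVs (limma adjusted p = 0.00727) and 1.10-fold with MCF10A EVs (adjusted p = 0.00139). Of 15 alternative settings 11 kept the first call and 14 the second. The first was lost with columns scaled to the same total (limma adjusted p = 0.256) and under quantile scaling (0.144). It was also lost without the trend (0.0909) and without PBS replicate 2, where its log2 change was -0.103. The second was lost without the trend (limma adjusted p = 0.0626). Rpe (chromosome 1), ribulose-phosphate epimerase, had 1275 and 1374 normalised reads with MDA-MB-231 EVs, 1217 and 1199 with MCF10A EVs, and 1160 and 1159 with PBS. It rose 1.14-fold with MDA-MB-231 EVs (adjusted p = 0.00532), a call lost without MDA-MB-231 EV replicate 2 (adjusted p = 0.0762). Rpia (chromosome 6), the isomerase, had 288 and 336 normalised reads with MDA-MB-231 EVs, 309 and 311 with MCF10A EVs, and 301 and 278 with PBS. Taldo1 (chromosome 7), transaldolase, had 3496 and 3379 normalised reads with MDA-MB-231 EVs, 3579 and 3568 with MCF10A EVs, and 3375 and 3368 with PBS. Neither of these last genes was called.

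Set directly against MCF10A EVs, MDA-MB-231 EVs differed slightly at a few steps, in both directions. Of the 33 genes, 6 were called higher with MDA-MB-231 EVs and 3 lower, where 6.84% of all rows were called higher and 10.1% lower. The calls higher were Hk1, Pfkl, Pfkp, Tpi1, Ldhb and Slc16a1, by 1.07-fold to 1.17-fold, and the calls lower were Eno3, G6pdx and Pgd, by 1.09-fold to 1.36-fold. The median log2 difference of the 26 genes from uptake to lactate was 0.07, and that of the 7 pentose phosphate genes was 0.00286, against -0.000634 over all rows. In 15 of the 33 genes both MDA-MB-231 EV libraries lay above both MCF10A EV libraries and in 7 below, where 27.2% and 28.9% of all rows did so. Among the 23 abundant genes 5 were called higher and 2 lower, where 11.9% and 19.9% of the rows this abundant were. Of the 18 genes that fell with both kinds of EV, 13 were not called between them, 4 fell less with MDA-MB-231 EVs and 1, Eno3, fell more.

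Pfkl and Pfkp were 1.16-fold (adjusted p = 0.00117) and 1.14-fold (adjusted p = 0.00237) higher with MDA-MB-231 EVs than with MCF10A EVs, and Hk1 was 1.11-fold higher (adjusted p = 0.00421). Eno3 was 1.36-fold lower (adjusted p = 4.75e-05), the largest difference called between the 2 kinds of EV. G6pdx was 1.09-fold lower (adjusted p = 0.00841) and Pgd 1.10-fold lower (adjusted p = 0.00762) with MDA-MB-231 EVs. With no filter on low values the adjusted p was 0.149 for Pfkl, 0.0978 for Pfkp and 0.0973 for Hk1, and without the trend it was 0.147, 0.121 and 0.147. Under both settings Eno3 was the only 1 of the 33 genes called between the 2 kinds of EV. Some of the calls also rest on single libraries. Tpi1 (adjusted p = 0.0186) was lost without either MCF10A EV library or MDA-MB-231 EV replicate 1, at an adjusted p of 0.0868 to 0.0979. Slc16a1 (adjusted p = 0.022) was lost without the same 3 libraries, at 0.0629 to 0.163, and Ldhb (adjusted p = 0.0406) without any of 5 libraries, at 0.0575 to 0.269. G6pdx was lost without MCF10A EV replicate 2 (adjusted p = 0.0839), and Pgd without MCF10A EV replicate 1 (adjusted p = 0.0815) or MDA-MB-231 EV replicate 2 (adjusted p = 0.0693).

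Several genes that missed the threshold in this comparison passed without 1 library. Without MDA-MB-231 EV replicate 2, Ldha was higher with MDA-MB-231 EVs by 0.15 on the log2 scale (adjusted p = 0.00232), as were Slc2a1, Pgam1 and Eno1 (adjusted p = 0.0357 to 0.0486). Without MDA-MB-231 EV replicate 1, Eno2 and Rpe were higher and Pgk1 was lower with MDA-MB-231 EVs (adjusted p = 0.0224 to 0.0361). Without MCF10A EV replicate 1, Pfkfb4 was higher (adjusted p = 0.0246). When the columns were scaled to the same total, 15 of the 33 genes were called higher with MDA-MB-231 EVs than with MCF10A EVs. So were 1791 of the 15025 rows tested, against 1027 on the deposited scale. Of the rows called, 61.8% were higher with that scaling, against 40.4% on the deposited scale. Under quantile scaling 14 of the 33 genes and 1244 of the 15025 rows were called higher, and these were 50.7% of the rows called. In that scaling Gapdh, whose log2 difference was -0.02 and not called, turned to 0.12 (adjusted p = 0.0169).

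**Figure D4:**
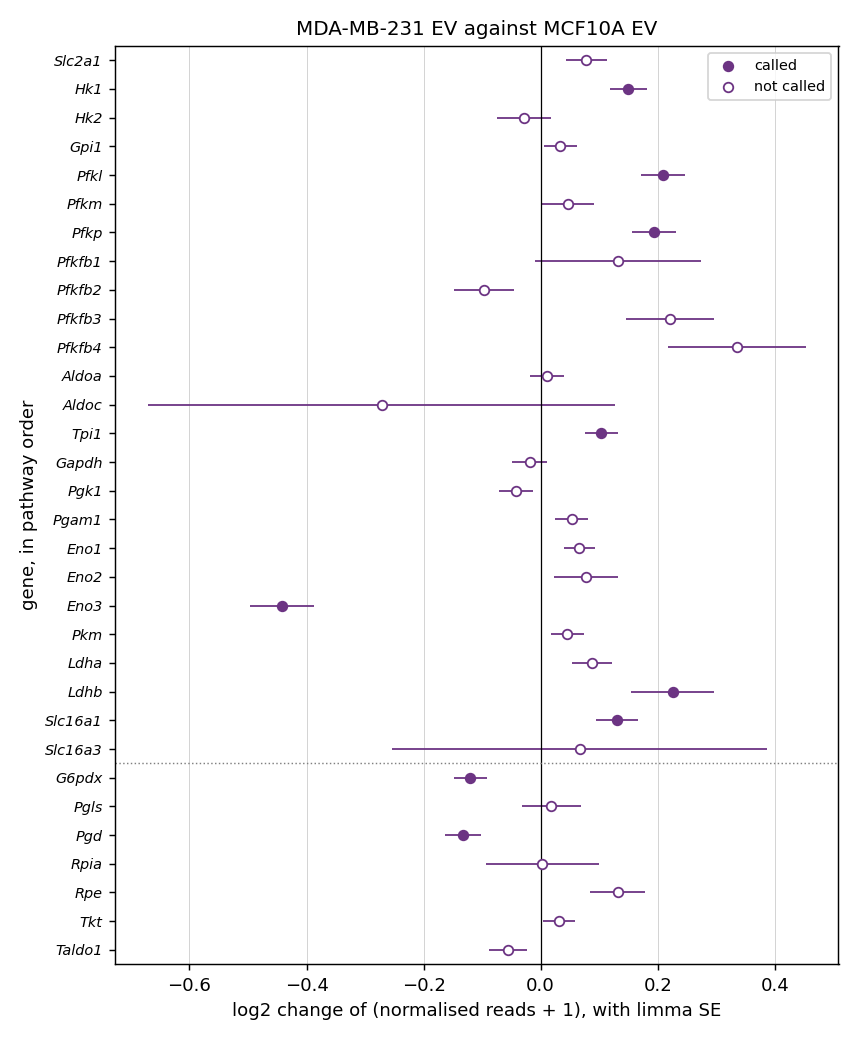
Log2 difference of normalised reads with MDA-MB-231 EVs relative to MCF10A EVs (x axis, limma estimate with its SE) for 32 genes in pathway order (y axis; Slc2a3 is left out), filled where the adjusted p was under 0.05. Hk1, Pfkl, Pfkp, Tpi1, Ldhb and Slc16a1 lie to the right of 0, and Eno3, G6pdx and Pgd to the left.

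The routes that feed from or into glycolysis were counted in the same fits, and their counts stand against the shares of all rows, 16.9% lower and 17.9% higher with MDA-MB-231 EVs and 14.6% lower and 17.1% higher with MCF10A EVs. Of 15 genes of pyruvate entry into mitochondria, 3 fell and 1 rose with MDA-MB-231 EVs and 5 fell with MCF10A EVs. Pdk1, a kinase that shuts pyruvate dehydrogenase, had 2776 and 2707 normalised reads with MDA-MB-231 EVs, 1983 and 2108 with MCF10A EVs, and 4171 and 4305 with PBS. The 3 groups did not overlap, with log2 changes of -0.63 with MDA-MB-231 EVs (adjusted p = 8.31e-09) and -1.05 with MCF10A EVs (adjusted p = 8.94e-11), and a log2 difference of 0.42 between the 2 kinds of EV (adjusted p = 2.12e-06). Pdk2, a second such kinase, had log2 changes of -0.66 with MDA-MB-231 EVs and -0.87 with MCF10A EVs.

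The hexosamine pathway draws fructose 6-phosphate into sugar nucleotides for glycosylation. Of its 7 genes 6 were called lower with MDA-MB-231 EVs, where 16.9% of all rows were, and 5 with MCF10A EVs, where 14.6% were. Uap1, which makes UDP-N-acetylglucosamine, had 2999 and 2913 normalised reads with MDA-MB-231 EVs, 3932 and 3809 with MCF10A EVs, and 5536 and 5630 with PBS. Its log2 changes were -0.92 and -0.53, and those of Gfpt1, the entry enzyme, were -0.56 and -0.29, so both genes fell more with MDA-MB-231 EVs than with MCF10A EVs (adjusted p = 9.33e-07 for Uap1 and 4.61e-05 for Gfpt1). Of 13 tested genes of gluconeogenesis and glycogen, 5 fell and 1 rose with MDA-MB-231 EVs, and 7 fell with MCF10A EVs, where 16.9% and 14.6% of all rows fell. Pgm2, a phosphoglucomutase, had log2 changes of -0.57 and -0.68, Gys1, the glycogen synthase of non-liver cells, of -0.30 and -0.53, and Pck2, the mitochondrial phosphoenolpyruvate carboxykinase, of -0.38 and -0.30.

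The TCA cycle burns acetyl groups made from pyruvate. Of its 18 genes, 6 rose with MDA-MB-231 EVs, where 17.9% of all rows did. With MCF10A EVs 4 rose and 2 fell, where 17.1% and 14.6% of all rows did, and DESeq2 called 2 in each direction. Among rows with a mean of at least 1000 normalised reads, 28% rose with MDA-MB-231 EVs. With MCF10A EVs 28.6% of those rows rose and 24.1% fell. Idh3a, a subunit of the NAD-linked isocitrate dehydrogenase, had 2484 and 2483 normalised reads with MDA-MB-231 EVs, 2339 and 2397 with MCF10A EVs, and 1963 and 2061 with PBS. Its log2 changes were 0.30 and 0.24, and those of Fh1, fumarase, were 0.25 and 0.17. Idh1 changed by -0.09 with MDA-MB-231 EVs (limma adjusted p = 0.0808) and by -0.20 with MCF10A EVs (adjusted p = 0.000506). The second was a call lost with no filter on low values and without the trend. Of 10 genes that pass NADH electrons into mitochondria, 3 rose and 2 fell with MDA-MB-231 EVs, and 5 rose and 1 fell with MCF10A EVs, while 17.9% of all rows rose and 16.9% fell with MDA-MB-231 EVs, and 17.1% rose and 14.6% fell with MCF10A EVs. Gpd2, the mitochondrial glycerol 3-phosphate dehydrogenase, fell by 0.48 and 0.30 on the log2 scale, while Slc25a13, an aspartate-glutamate carrier, rose by 0.31 and 0.27. Prps1 and Prps2, which turn ribose phosphate into the precursor of nucleotides, rose with both kinds of EV, Prps1 by 0.39 and 0.36 and Prps2 by 0.50 and 0.23 on the log2 scale, as 2 of the 4 genes of ribose use, where 17.9% and 17.1% of all rows rose.

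**Figure D5:**
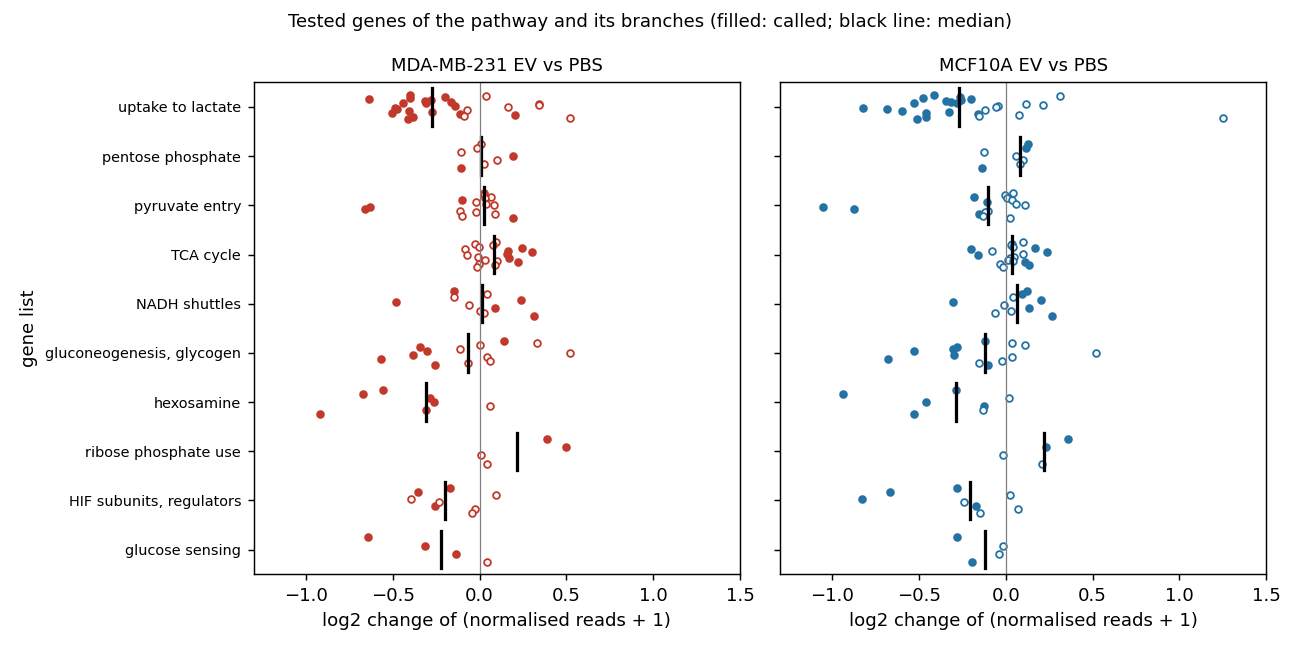
Log2 change of normalised reads (x axis) of the tested genes of each list (y axis), with MDA-MB-231 EVs relative to PBS (left) and MCF10A EVs relative to PBS (right), filled where the adjusted p was under 0.05, with the median of the list as a black line. With MDA-MB-231 EVs the median is -0.28 for uptake to lactate, -0.31 for hexosamine, 0.01 for pentose phosphate and 0.08 for TCA genes; with MCF10A EVs it is -0.27, -0.29, 0.08 and 0.04 in the same order.

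Of 8 genes of the HIF subunits and their regulators, 3 were called lower with MDA-MB-231 EVs and 4 with MCF10A EVs, where 16.9% and 14.6% of all rows were, and 29.3% and 24.1% of the rows with a mean of at least 1000 normalised reads. Hif1a, the oxygen-regulated subunit, had 12046 and 11728 normalised reads with MDA-MB-231 EVs, 12718 and 12446 with MCF10A EVs, and 14307 and 14079 with PBS. This corresponds to log2 changes of -0.26 (adjusted p = 2.89e-06) and -0.17 (adjusted p = 0.000186). Arnt, its partner, changed by -0.17 with MDA-MB-231 EVs and -0.28 with MCF10A EVs on the log2 scale, the first a call lost without PBS replicate 1 (adjusted p = 0.0645). Egln1, the prolyl hydroxylase that marks HIF for destruction and is itself a HIF target, changed by -0.36 and -0.66, and the log2 difference of 0.31 between the 2 kinds of EV was called (adjusted p = 1.96e-05). Of 4 tested genes of glucose sensing, 3 fell with MDA-MB-231 EVs and 2 with MCF10A EVs, against 16.9% and 14.6% of all rows, and Arrdc4, an arrestin induced by glucose, changed by -0.64 and -0.28.

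Other isoforms of the enzymes and transporters numbered 32, of which 25 could be tested. With MDA-MB-231 EVs 7 fell and 1, H6pd, the endoplasmic reticulum counterpart of G6pdx, rose, and with MCF10A EVs 5 fell and 1, Adpgk, rose. Of all rows 16.9% fell with MDA-MB-231 EVs and 14.6% with MCF10A EVs, and with DESeq2, which gave an adjusted p for 17 and 8 of these genes, 3 and 2 fell. The call of H6pd (adjusted p = 0.0331) was lost without PBS replicate 2 (adjusted p = 0.264), without MDA-MB-231 EV replicate 1 (adjusted p = 0.102) and without MDA-MB-231 EV replicate 2 (adjusted p = 0.0891). Bsg, which encodes the chaperone that brings MCT1 to the cell surface, had 10321 and 9860 normalised reads with MDA-MB-231 EVs, 10653 and 10608 with MCF10A EVs, and 12866 and 12761 with PBS. It fell by 0.35 and 0.27 on the log2 scale, while Slc16a1 rose with MDA-MB-231 EVs. Slc2a6, a lysosomal hexose transporter, fell by 0.43 on the log2 scale with MDA-MB-231 EVs (adjusted p = 5.58e-05), and its log2 change with MCF10A EVs was 0.01 (adjusted p = 0.892). The difference between the 2 kinds of EV was called (log2 difference -0.44, adjusted p = 0.000142). Adpgk, the ADP-dependent glucokinase, changed by 0.10 (adjusted p = 0.149) with MDA-MB-231 EVs and by 0.31 (adjusted p = 0.000281) with MCF10A EVs.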

How the data were processed

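RNA-seq was read from 1 deposited table of 20475 mouse genes in 6 libraries. Per the submitters' processing notes the tools were TopHat2 and edgeR and the build hg19, while the rows lie on mouse chromosomes, so the mouse build is not given in the sources used here and rows carry a chromosome only. Per the labels' protocols RNA was extracted with TRIzol and libraries were made with the Kapa stranded mRNA kit; the strand counted is not given in the sources used here. The deposited signal values are not whole numbers. They behaved as counts that the authors had adjusted to a common library size (edgeR pseudo-counts): undoing that adjustment at a common dispersion of 0.000591 gave whole reads for 122850 of 122850 values (100%, relative tolerance 1e-06), with 22451173 to 29315530 reads per library. Intervals and limits cover counting error only.

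The main test was limma 3.58.1 (R 4.3.3; empirical Bayes with trend) on log2(value + 1), over the 15025 rows that reached 1 normalised read in 2 or more libraries, in 1 fit of all 6 libraries with 3 residual degrees of freedom and Benjamini-Hochberg adjustment over all rows. A fold is 2 to the power of the log2 change, so it is on the log2(value + 1) scale. The plan named the edgeR count test for raw counts; as the values are adjusted, limma stayed the main test and edgeR 4.0.16 (quasi-likelihood) and DESeq2 1.42.0 were run on the recovered reads, where edgeR called 2836 genes higher and 2718 lower with MDA-MB-231 EVs than with PBS, 2644 and 2516 with MCF10A EVs than with PBS, and 1351 and 1636 with MDA-MB-231 EVs than with MCF10A EVs. The limma step and the recovery of reads were tested on simulated data. Levels between genes were compared per kilobase of exon (GENCODE vM21). Promoters came from RefSeq on GRCm38.p6. All 33 matched genes are named; of the other lists, called genes with the smallest p, at most 3 per list and direction, could be named. The members and lists were chosen with earlier results of these data known.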

Additional observations from a re-analysis of the deposited data

How the results depend on the processing

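Over the 33 genes, 1463 values were recomputed under other settings: 1330 kept direction and side of the threshold, 52 gained a call, 78 lost one and 3 changed direction. The same settings, added for 25 genes of the other lists after seeing the data, gave 1044 kept, 20 gained and 61 lost of 1125. The 3 that changed direction did so under quantile scaling, namely Eno1 (0.027) and Pkm (0.259) with MDA-MB-231 EVs against PBS and Gapdh (0.122) between the 2 kinds of EV; the cause was not tested. For MDA-MB-231 EVs against PBS, genes called were 1600 higher and 1686 lower with no filter on low values, 1634 higher without the trend and 1754 higher with DESeq2, and 7 of the 33 were higher with columns scaled to the same total. For MCF10A EVs against PBS, genes called were 1363 higher and 1070 lower with no filter, 1228 and 1003 without the trend and 1665 higher with DESeq2, and of the 33 genes 1 was higher with no filter, 4 with the same total and 0 without the trend. Between the 2 kinds of EV, genes called were 229 higher and 482 lower with no filter, 124 and 254 without the trend, 577 and 937 with DESeq2, and 1791 higher with the same total. Of the 33 genes, 0 were then higher and 1 lower with no filter and likewise 0 and 1 without the trend (Eno3 in both), while 10 were higher with a filter of 5 CPM, 15 with the same total, 14 under quantile scaling and 11 with edgeR.

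Leaving out each library in turn gave, for MDA-MB-231 EVs against PBS, 2 to 4 of the 33 genes higher and 16 to 18 lower, and 2041 to 2582 genes higher and 1967 to 2474 lower. For MCF10A EVs against PBS it gave 1 to 2 higher and 17 to 19 lower, and 1811 to 2625 genes higher and 1461 to 2272 lower. Between the 2 kinds of EV it gave 3 to 9 higher and 2 to 4 lower, and 517 to 901 genes higher and 908 to 1395 lower. Per kilobase of exon, in the order MDA-MB-231 EVs, MCF10A EVs and PBS, the share of Hk2 was 21.5%, 23.7% and 23.2%, that of Pfkm 24.0%, 26.1% and 19.5%, that of Pfkp 22.1%, 21.7% and 22.6% and that of Ldhb 2.53%, 2.31% and 1.48%, and Pfkl with MCF10A EVs was 52.3%.

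The labels do not say whether same-numbered samples were paired. Same-numbered deviations correlated at -0.00442, -0.00648 and 0.0188 over 10309 genes, so no effect shared by number was seen. That cannot show how the samples were handled. With the replicate block, 2662 genes were higher and 2525 lower with MDA-MB-231 EVs against PBS, 2562 and 2184 with MCF10A EVs against PBS, and 1039 and 1521 between the 2 kinds of EV. Among the 33 genes the block ended the call of Pfkfb2 with MDA-MB-231 EVs (adjusted p = 0.0556) and gave calls of Pfkm with MCF10A EVs (adjusted p = 0.0357) and Ldha between the 2 kinds of EV (adjusted p = 0.0485). Depth limits Slc2a3, Aldoc and Slc16a3, which had too few reads for a small difference to be seen.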
